A study of Mus musculus with 8 samples.

Results

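Chromatin remodelers and histone modifiers were examined in neuro2a (N2a) cells, which derive from a mouse neuroblastoma and serve as a neuron-like culture, after knockdown of Grp94. Members were chosen by gene symbol and not by their values, though earlier results of these data were known. They were the transcript clusters with a symbol starting Kdm, Jmjd, Jarid, Kat, Myst, Hdac, Sirt, Smarc, Arid, Brd, Baz, Setd, Ehmt, Mll, Ezh, Dnmt, Prmt or Cbx, or Chd or Tet followed by a digit, or equal to Bptf or Suz12, with Kdm3a left out. This found 18 of the 2395 transcript clusters in the authors' table, which stand for 17 genes, since Bptf had 2. Kdm3a had no row in that table, so leaving it out removed none. A transcript cluster is the set of probes that an Affymetrix Mouse Gene 1.0 ST array assigns to the transcripts of a gene.

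The 8 arrays were 4 from cells that received an empty vector and 4 from cells that received miR RNAi vectors against Grp94, the ER chaperone encoded by Hsp90b1. Both groups were the same cell line, transfected with vectors that also carry EmGFP and harvested after 2 days. Per the study's methods, 2 Grp94 constructs and also a non-targeting control were in use, but how they fall on the arrays, and whether the arrays came from separate cultures, is not labelled. Only the authors' mean of each group was available for this description, so no value per array, no error and no test can be given here. All 2395 rows had an adjusted p of at most 0.01 in the authors' own comparison, so every member had passed that limit, and a gene without a row has no value here and is described as not listed. Hsp90b1 itself had a group mean of 0.74 with the empty vector and -0.78 in the knockdown on the centred log2 scale, a 2.87-fold decrease. The authors' means are centred for each transcript cluster and keep no expression level, so that genes can be compared only by their differences, and cell type markers could not be checked by level. Of 14 neuroblastoma and neuronal markers 5 were listed (Mapt, Dbh, Hand2, Stmn2 and Th), and of 8 markers of glial and other cells 0 were listed. The 5 moved both ways, with Mapt 1.66-fold, Stmn2 1.13-fold and Th 1.09-fold lower, and with Dbh 1.41-fold and Hand2 1.19-fold higher, and their part in the members' values was not tested.

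Histones carry acetyl and methyl groups that enzymes write and erase and that other proteins read, while ATP-driven remodelers move or eject nucleosomes. Acetylation generally marks active chromatin. Methylation of H3K4 lies at active promoters, and that of H3K9 and H3K27 in repressed regions. Most lysine demethylases are JmjC enzymes, which need oxygen, iron and 2-oxoglutarate. In the nervous system several of these genes, among them Ehmt1, Kdm5c and Setd5, cause intellectual disability when mutated.

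The members changed little and in both directions. In the knockdown 10 were lower (55.6%) and 8 were higher (44.4%), beside 59.9% lower and 40.1% higher among all listed transcript clusters. A single member, Kdm4b, passed a fold change of 1.3, as a decrease. That is 5.56% of the members, beside 22.3% of all listed transcript clusters past 1.3-fold in either direction, 16.1% past it as decreases and 6.26% as increases. The median difference of the knockdown from the empty vector was -0.14 among members and -0.16 among all listed transcript clusters on the log2 scale. The median size of a member's change, without regard to direction, was 0.23 (1.17-fold) and that of all listed ones 0.25 (1.19-fold). These shares and medians describe the listed rows and were not tested. The direction depends on where the scale is set to 0. When the values were shifted by the median of all listed transcript clusters, 8 members were lower and 10 were higher, and 1 lower and 3 higher ones passed 1.3-fold. That is 22.2% of the members, beside 28.6% of all listed transcript clusters under the same shift (6.64% lower and 22.0% higher), so that the low share of members past 1.3-fold also depends on the zero point. In RNA from a whole culture, less RNA per cell and fewer cells that express a gene cannot be told apart.

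**Figure D1:**
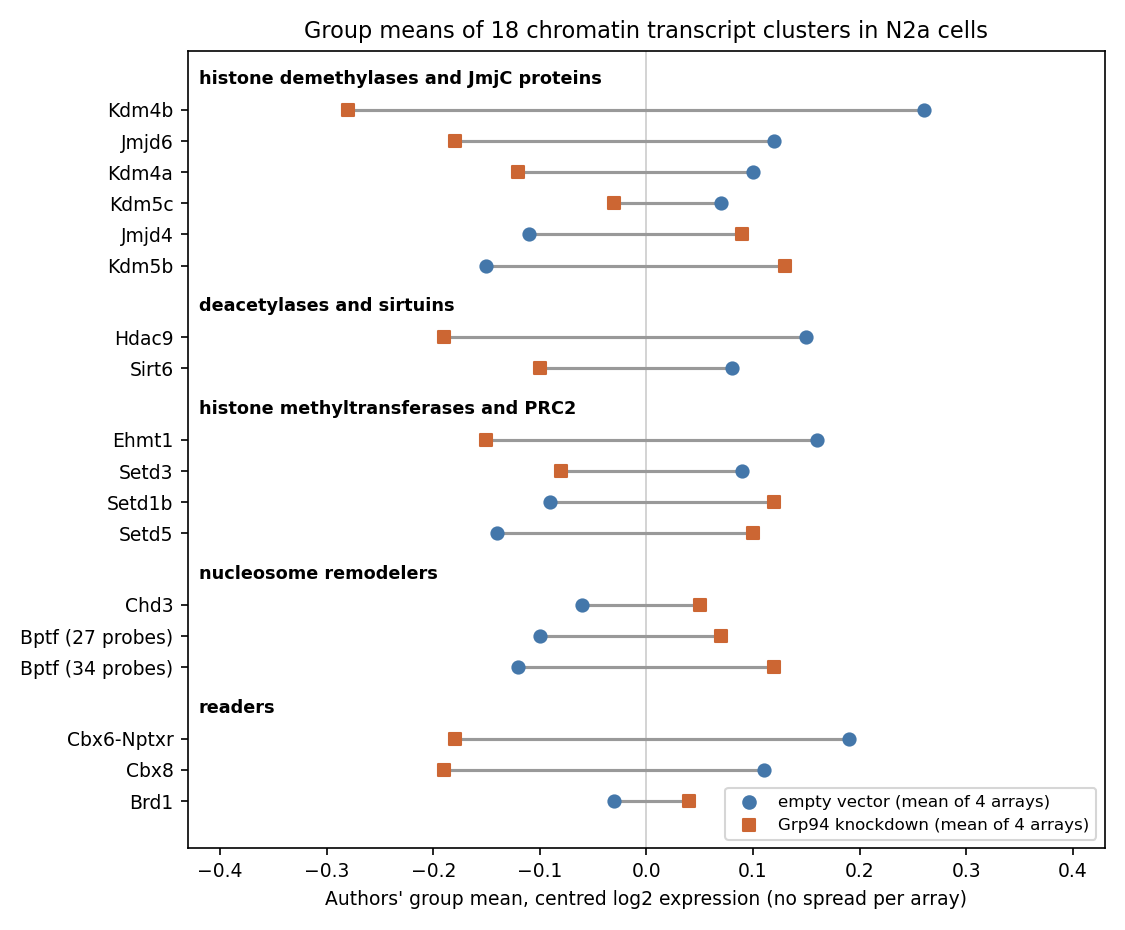
Authors' group means of the 18 members on the centred log2 scale (x axis), with circles for the empty vector, squares for the Grp94 knockdown (each the mean of 4 arrays, no spread per array) and members sorted by role. The widest gap is that of Kdm4b, from 0.26 to -0.28, the 2 deacetylases are both lower, and the 3 rows of remodelers are all higher in the knockdown.

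The histone demethylases and other JmjC proteins were the largest group, with 6 members, of which 4 were lower and 2 were higher. Kdm4b, which removes methyl groups from H3K9 and H3K36, lies on the plus strand of chromosome 17 (56465515 to 56542286, 48 probes). Its group mean was 0.26 with the empty vector and -0.28 in the knockdown, a difference of -0.55 or a 1.46-fold decrease. Only 8.23% of all listed transcript clusters changed by as much in either direction. Kdm4a, its paralog with the same substrates (chromosome 4, 117809564 to 117852551), moved from 0.10 to -0.12, a 1.17-fold decrease. Both listed members of the KDM4 family were thus lower, Kdm4b by more than Kdm4a.

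Jmjd6 is a JmjC oxygenase that hydroxylates lysines of splicing factors (chromosome 11, 116697362 to 116704763). Its mean was 0.12 with the empty vector and -0.18 in the knockdown, a 1.23-fold decrease. Jmjd4, which hydroxylates a translation release factor (chromosome 11, 59263562 to 59271570), went the other way, from -0.11 to 0.09, a 1.15-fold increase. The listed paralogs of the KDM5 family, which erase methylation of H3K4, also moved in opposite directions. Kdm5b (chromosome 1, 136456772 to 136529454) rose from -0.15 to 0.13, and its 1.22-fold increase was the largest among the members. Kdm5c, an X-linked gene (chromosome X, 148667815 to 148708339), had means of 0.07 and -0.03, a 1.08-fold decrease, and 95.4% of all listed transcript clusters changed by at least as much. Of 8 JmjC genes set down as targets of hypoxia or relatives of such targets, 4 were listed. These were Kdm4b, Jmjd6 and Kdm5c, which were lower, and Kdm5b, which was higher.

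Erasers of acetylation were represented by 2 members, both lower. Hdac9, a class IIa deacetylase that represses MEF2 target genes, spans a long locus on chromosome 12 (34737176 to 35213739). It fell from 0.15 to -0.19, a difference of -0.34 and a 1.27-fold decrease. Sirt6, an NAD-dependent deacetylase that acts in DNA repair and restrains glycolytic genes (chromosome 10, 81084530 to 81090303), had means of 0.08 and -0.10, a 1.14-fold decrease. No acetyltransferase with a symbol starting Kat or Myst was listed.

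The methyltransferase group held 4 members, 2 lower and 2 higher. Ehmt1, known as GLP, places mono- and dimethyl marks on H3K9 together with G9a (chromosome 2, 24646315 to 24775121). It fell from 0.16 to -0.15, a 1.25-fold decrease. Ehmt1 writes and Kdm4a and Kdm4b erase methylation of H3K9, and all 3 were lower. Setd1b, a catalytic subunit of a COMPASS complex that methylates H3K4 (chromosome 5, 123592202 to 123598839), rose from -0.09 to 0.12, a 1.15-fold increase. Setd1b writes and Kdm5b erases methylation of H3K4, and both were higher, while Kdm5c, which erases it too, was lower. Setd5, a chromatin regulator with a SET domain (chromosome 6, 113027633 to 113103420), had means of -0.14 and 0.10, a 1.18-fold increase. Setd3, known as a methyltransferase of actin, had means of 0.09 and -0.08, a 1.12-fold decrease. This value is uncertain as a measure of Setd3, because its transcript cluster spans 1139 bp on chromosome 2 (128995077 to 128996215), while RefSeq places the gene on chromosome 12. It was the only member on another chromosome than its gene.

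Nucleosome remodelers gave 3 rows from 2 genes, all higher. Bptf, the largest subunit of the NURF remodeler, which binds methylated H3K4, was measured by 2 transcript clusters on the minus strand of chromosome 11 that do not overlap and lie 5852 bp apart. The one with 34 probes (106896703 to 106934047) rose from -0.12 to 0.12, a 1.18-fold increase. The one with 27 probes (106939900 to 106992880) rose from -0.10 to 0.07, a 1.13-fold increase, so that the pair differed by 0.07 on the log2 scale. Both come from the same RNA and count as 1 gene. Chd3, an ATPase of the NuRD complex (chromosome 11, 69156775 to 69182996), had means of -0.06 and 0.05, a 1.08-fold increase. No transcript cluster with a symbol starting Smarc, Arid or Baz was listed. Other subunits of BAF-type remodelers, which those symbol starts do not cover, were listed, with Phf10 1.5-fold lower and Bcl7a and Ss18 each 1.18-fold higher.

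Of 3 members named for reader domains, 2 were lower. Cbx8 brings Polycomb repressive complex to methylated H3K27 (chromosome 11, 118899750 to 118902227). It fell from 0.11 to -0.19, a 1.24-fold decrease. The transcript cluster named Cbx6-Nptxr (chromosome 15, 79616781 to 79664763, 53 probes) carries the identifiers of Cbx6, a related Polycomb protein, of Nptxr, the neuronal pentraxin receptor, and of Npcd, so that its value cannot be assigned to Cbx6. It moved from 0.19 to -0.18. Its difference of -0.374 lay just inside the 1.3-fold threshold of 0.379. Brd1, a scaffold of histone acetyltransferase complexes (chromosome 15, 88517730 to 88564660), shares its transcript cluster with LOC100045983. It had the smallest change of all members, from -0.03 to 0.04, a 1.05-fold increase. Among the 22 symbol starts and symbols searched, 12 had no listed member, among them those of the DNA methylation enzymes (Dnmt and Tet), the arginine methyltransferases (Prmt), and Ezh and Suz12 of PRC2.

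**Figure D2:**
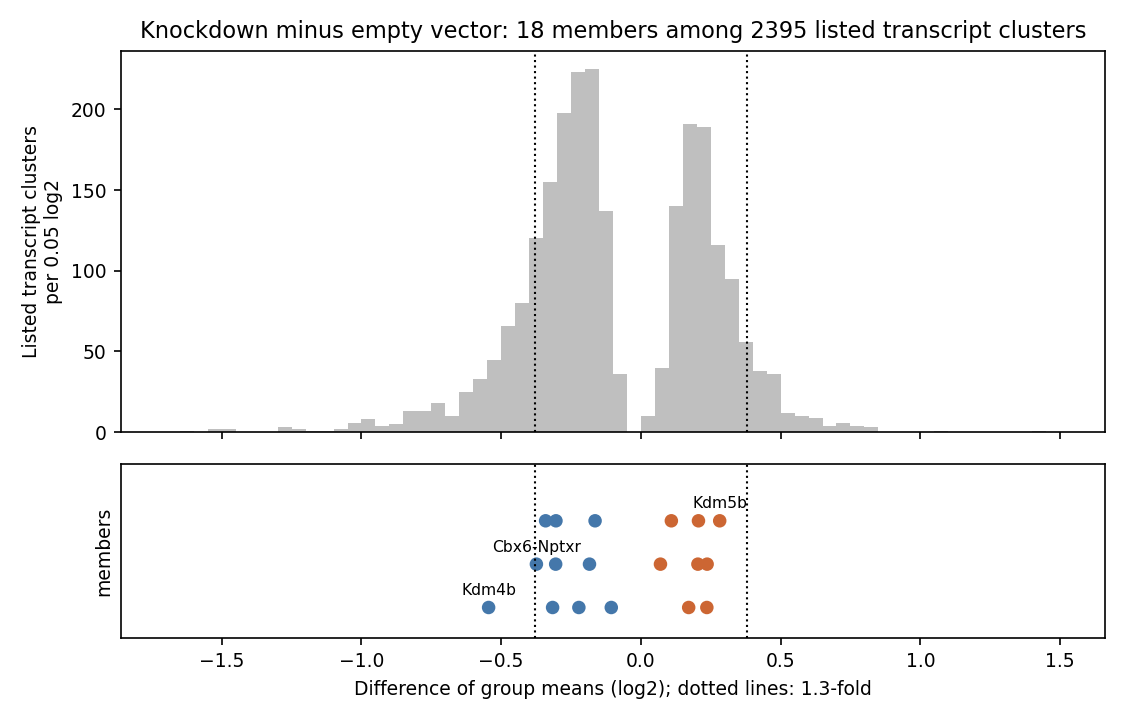
Difference of the authors' group means, knockdown minus empty vector on the log2 scale (x axis), as a histogram of all 2395 listed transcript clusters (top, y axis: number per bin) and as points for the 18 members (bottom, height only separates the points). Dotted lines mark a fold change of 1.3, past which only Kdm4b lies; Cbx6-Nptxr lies just inside, and few values lie near 0 in this table, which holds only rows past the authors' limit.

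Position and size, which the choice by symbol did not use, were set beside those of all listed transcript clusters. The members lay on 11 chromosomes, and 6 rows from 5 genes (33.3%) were on chromosome 11, which held 8.02% of all listed transcript clusters. Of these 6, Cbx8 and Jmjd6 were lower and Jmjd4, Chd3 and both rows of Bptf were higher. The median span of a member was 41.8 kb, beside 18.4 kb for all listed transcript clusters, and the median number of probes was 32 beside 30. These comparisons are descriptive.

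Promoters are shown for the 3 lower and the 3 higher genes with the largest change, among those with a RefSeq stretch and a transcript cluster of 1 gene on its own chromosome, to let the letters before their start sites be read side by side. Cbx8, the last of the lower ones, differed from Jmjd6 only in the third decimal (-0.305 and -0.304). Each is the stretch of 250 bases before a RefSeq start of the gene in build GRCm38.p6, in the direction of transcription. The build of the array table was not given in the sources used here, and none of its positions were used for these stretches. Capitals mark CCAAT, the core letters bound by NF-Y, and ACGTG or GCGTG, the core letters of hypoxia response elements, each searched on both strands, so that ATTGG and also CACGT and CACGC are marked. CACGTG matches ACGTG on both strands, and neighbouring matches can run into each other.

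The promoters of Hdac9 (chr12:34917096-34917345, minus strand), the first of its 2 starts, Ehmt1 (chr2:24919610-24919859, minus strand) and Cbx8 (chr11:119040914-119041163, minus strand), all lower, were as follows.
Hdac9: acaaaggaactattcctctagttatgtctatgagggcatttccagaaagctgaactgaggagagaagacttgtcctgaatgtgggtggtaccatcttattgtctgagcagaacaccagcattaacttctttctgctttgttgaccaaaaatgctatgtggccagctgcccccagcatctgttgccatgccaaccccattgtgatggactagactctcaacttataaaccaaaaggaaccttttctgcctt
Ehmt1: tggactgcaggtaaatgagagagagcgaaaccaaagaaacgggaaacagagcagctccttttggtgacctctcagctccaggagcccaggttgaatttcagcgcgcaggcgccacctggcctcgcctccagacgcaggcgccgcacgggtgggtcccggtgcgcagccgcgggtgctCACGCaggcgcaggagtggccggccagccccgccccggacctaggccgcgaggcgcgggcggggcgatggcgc
Cbx8: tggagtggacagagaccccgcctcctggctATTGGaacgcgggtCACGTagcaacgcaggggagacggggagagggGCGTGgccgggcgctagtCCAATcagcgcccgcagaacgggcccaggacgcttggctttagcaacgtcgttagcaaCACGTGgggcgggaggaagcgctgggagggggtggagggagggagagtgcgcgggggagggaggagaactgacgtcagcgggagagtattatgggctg

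The promoters of Kdm5b (chr1:134559928-134560177, plus strand), Bptf (chr11:107132148-107132397, minus strand) and Setd5 (chr6:113104685-113104934, plus strand), all higher, were as follows.
Kdm5b: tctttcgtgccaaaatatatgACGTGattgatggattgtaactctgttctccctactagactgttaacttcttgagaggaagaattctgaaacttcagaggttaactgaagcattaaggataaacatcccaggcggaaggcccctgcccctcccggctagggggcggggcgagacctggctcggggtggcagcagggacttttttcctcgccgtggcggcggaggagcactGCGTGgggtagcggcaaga
Bptf: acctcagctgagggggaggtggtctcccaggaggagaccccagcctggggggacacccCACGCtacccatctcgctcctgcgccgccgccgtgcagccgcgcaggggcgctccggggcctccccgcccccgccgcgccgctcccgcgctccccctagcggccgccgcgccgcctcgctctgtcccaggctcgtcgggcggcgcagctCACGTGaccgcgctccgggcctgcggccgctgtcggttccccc
Setd5: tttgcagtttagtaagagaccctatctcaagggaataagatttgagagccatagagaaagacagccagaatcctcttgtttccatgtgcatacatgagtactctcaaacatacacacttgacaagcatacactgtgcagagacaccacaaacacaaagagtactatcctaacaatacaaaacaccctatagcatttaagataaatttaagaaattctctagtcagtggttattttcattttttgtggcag

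Neither the Hdac9 nor the Setd5 stretch held any of these letters, and that of Ehmt1 held GCGTG at 1 position. The Setd5 stretch, counted among those of higher members below, had the lowest share of G and C of all member stretches (36.8%). Whether its RefSeq start is the main start of the gene was not tested. In the Cbx8 stretch CCAAT matched at 2 positions, ACGTG at 3 and GCGTG at 1. The Kdm5b stretch had 1 match each of ACGTG and GCGTG, and that of Bptf had 2 of ACGTG, both within 1 CACGTG, and 1 of GCGTG. RefSeq stretches were found for 14 of the 17 member genes (all but Kdm4b, Chd3 and Setd1b, and that of Cbx6 for Cbx6-Nptxr). There were 17 in all, since Hdac9, Sirt6 and Setd3 have 2 starts each. CCAAT was in 6 of them (35.3%), beside 33.8% of all 32851 stretches and 36.7% of those of listed genes. All 6 belonged to members that were lower (6 of 12 stretches from 9 genes), and 2 of these were overlapping stretches of Setd3, whose transcript cluster lies on another chromosome. Among the 5 stretches of higher members CCAAT was in 0. This split depends on the zero point, since after the shift by the median of all listed transcript clusters CCAAT was in 3 of 9 stretches of lower and in 3 of 8 of higher members. These 3 of higher members were that of Kdm5c and the 2 overlapping ones of Setd3. The difference of Setd3 and that median both round to -0.16. Before rounding Setd3 lay on the higher side, close to the shifted zero point. ACGTG or GCGTG was in 11 of 17 (64.7%), beside 38.6% of all stretches and 54.4% of those of listed genes. By direction these letters were in 7 of 12 stretches of lower and in 4 of 5 of higher members. After the shift by that median they were in 5 of 9 of lower and in 6 of 8 of higher members. Both overlapping stretches of Setd3 are among those with these letters. A match of letters is a description of the stretch and not a measured binding site.

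Other chromatin genes, from a list of 197 that the symbol rule does not cover, were set beside the members. Of these, 32 had a row, with 34 transcript clusters in all, of which 13 (38.2%) were lower and 21 (61.8%) were higher. Among all listed transcript clusters 59.9% were lower and 40.1% were higher. The higher ones of this list include those of H3f3a, which lie on other chromosomes than their gene and are uncertain as a measure of it. Their median difference was 0.16, and 2 lower and 1 higher passed 1.3-fold (8.82%, beside the 22.3% of all listed transcript clusters). Phf10, a subunit of a BAF-type remodeler, had the largest difference, with means of 0.29 and -0.29 and a 1.5-fold decrease, but shares its transcript cluster with 1600012H06Rik. Rbbp4, a histone chaperone in several complexes, was 1.31-fold lower and shares its transcript cluster with Sync. Crebbp, the acetyltransferase CBP, moved from -0.21 to 0.20, a 1.33-fold increase. Mbtd1, a reader in the TIP60 acetyltransferase complex, was 1.28-fold higher, from -0.13 to 0.23. Hr, a JmjC protein and corepressor, was 1.27-fold lower, from 0.19 to -0.15.

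Partners and relatives of the members in this list, singled out after their values were seen, moved in both directions. Of acetyltransferases and their scaffolds, Ep300, related to CBP, was 1.21-fold higher, from -0.14 to 0.14. Brpf1, a paralog of Brd1 that serves as scaffold of the same kind of complexes, was 1.18-fold higher, beside the 1.05-fold increase of Brd1. Among subunits of NuRD, to which Chd3 belongs, Gatad2b was 1.16-fold higher and Rbbp4, as given above, was 1.31-fold lower. Among other Polycomb proteins, beside the member Cbx8, the ubiquitin ligase Rnf2 was 1.14-fold higher and Pcgf3 was 1.13-fold lower. The corepressor subunits Tbl1xr1 and Rcor2 were 1.27-fold and 1.24-fold lower, while the subunit Tbl1x was 1.13-fold higher. Phf2, a JmjC demethylase outside the symbol rule, was 1.2-fold higher. Of the genes of histone H3.3, H3f3b was 1.09-fold lower. All 3 transcript clusters of H3f3a were higher by 1.11-fold to 1.12-fold, but lie on chromosomes 13 and 6 while RefSeq places the gene on chromosome 1, so they are uncertain as a measure of that gene.

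**Figure D3:**
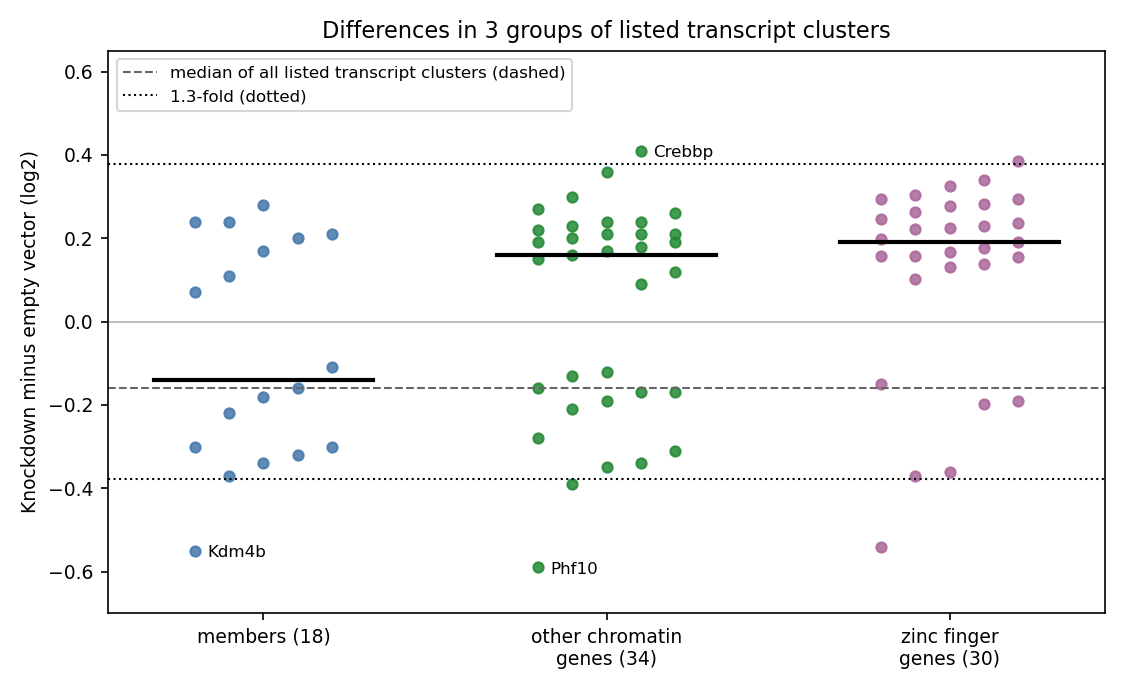
Difference of the authors' group means, knockdown minus empty vector on the log2 scale (y axis), for the 18 members, 34 transcript clusters of other chromatin genes and 30 of zinc finger genes (points, spread sideways for legibility), with a black bar at the median of each group (-0.14, 0.16 and 0.19), a dashed line at the median of all listed transcript clusters (-0.16) and dotted lines at a fold change of 1.3. Members lie on both sides of 0, whereas more of the points of the other chromatin and the zinc finger genes lie above 0.

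Zinc finger genes (symbols starting Zfp or Zscan), another large class of nuclear proteins, had 30 transcript clusters in the table. Among these, 24 were higher (80.0%, beside 40.1% of all listed transcript clusters) and 6 were lower, and the median difference was 0.19. Of the 30, 2 passed 1.3-fold (6.67%, beside 22.3% of all listed ones), a low share like those of the members (5.56%) and the other chromatin genes (8.82%). The median size of a change without regard to direction was 0.23 in this class and 0.21 among the other chromatin genes, beside 0.23 among the members. No difference between these groups was tested.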

How the data were processed

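The authors labelled total RNA of transfected N2a cells for Affymetrix Mouse Gene 1.0 ST arrays and analysed the data in Agilent GeneSpring GX, where genes under the 20th percentile of expression were left out. The authors deposited 1 table, with a log2 mean per group centred for each transcript cluster, and with the p-value, adjusted p-value and fold change of their own comparison. The authors' adjusted p-values were read only to find the limit on the rows (an adjusted p of at most 0.01 in all 2395), and the fold changes only to check that they equal the difference of both means (2395 of 2395 rows). Probe summarization, normalization between arrays, the test and the genome build are not given in the sources used here.

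The empty vector mean was subtracted from the knockdown mean, and a fold change over 1.3 was counted as past the threshold. The planned linear model per array was not run, since only group means were used. Members and lists were chosen with earlier results of these data known. The named genes were to be members past 1.3-fold, the 2 with the largest change in each role and the 5 of the other chromatin list, and the remaining members were added since they are few. Chromosomes and promoters came from RefSeq (GRCm38.p6), matched by Entrez identifier. Python 3.11.15, numpy 2.4.6, pandas 2.3.3 and matplotlib 3.10.9 were used, and the search was tested on simulated data. Alternatives changed the threshold, the unit of counting, shared rows and the zero point.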

Additional observations from a re-analysis of the deposited data

How the results depend on the processing

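The count of 1 member past 1.3-fold follows the threshold, with 7 (6 lower, 1 higher) at 1.2-fold, 0 at 1.5-fold and all 18 with none. At 1.2-fold these were 38.9% of the members beside 46.6% of all listed transcript clusters. At 1.5-fold the share of all listed ones was also low, at 6.76%. Shifting the zero point to the median of all listed transcript clusters gave 4 past 1.3-fold (22.2% of the members beside 28.6% of all listed ones) and turned the median difference of the members from -0.14 to 0.03, which follows from the construction. The median was -0.16 with rows of 1 symbol alone and also with 1 count per symbol. Without the 3 rows of several genes or of another chromosome than their gene, an alternative chosen after seeing the data, it was -0.11, with 8 lower and 7 higher. The counts of lower and higher members stayed within 1.5 times under each alternative run on them, and leaving out katanin and Mllt symbols changed nothing, as none was listed. No paired analysis was possible because the table holds group means and no value per array, so that single arrays could not be left out either. The number of arrays limits the precision of each mean, whose error is unknown here.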
